A study of Rattus norvegicus with 8 samples.

Results

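The complement and coagulation factors of rat liver were followed on arrays of total liver RNA. The members were 38 listed genes of the complement and clotting systems. A gene counted as measured where a probe of the array carried an accession naming it and lay well above background in either dye on at least 4 of 8 arrays, and its brightest probe represented it. By that rule 31 of the 38 genes were measured, 19 of complement and 12 of coagulation, among 9967 named genes and 24128 features in all. C4b, C5, C8b, C8g, F5, F11 and F13b had no named probe that met the rule and were not analysed here.

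The rats were male Zucker diabetic fatty rats aged 12 weeks. The 4 groups were obese rats (fa/fa) given testosterone undecanoate (TU, a long-acting testosterone ester), obese rats given vehicle, lean rats (fa/+) given TU and lean rats given vehicle. TU was injected subcutaneously at 20 mg/kg over 4 weeks. The fa allele damages the leptin receptor, so that its signal is impaired in fa/fa rats. Each of the 8 arrays carried a TU RNA in Cy5 and a vehicle RNA of the same genotype in Cy3, with 4 arrays per genotype. The labels call every array a biological replicate but do not tie an RNA to an animal, so the p-values measure the spread between these RNAs only.

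Complement is a set of plasma proteins, largely secreted by hepatocytes, that cleave one another in turn and mark or perforate microbes. Its entry routes (C1q binding to antibody, lectins binding to sugars, and slow hydrolysis of C3) converge on C3, and the terminal components then assemble into a membrane pore. The clotting factors are likewise mostly hepatocyte proteases and cofactors that end in thrombin, and several of them need vitamin K to be made in active form.

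The stretches upstream of 5 members on which the results below turn are printed first: C1qa, Klkb1 and F10, lower in obese liver with either dye, F2, lower in obese liver after TU, and Serpinc1, higher in obese liver with vehicle. The sequences are the 250 bases before the start of each gene, 5′ to 3′ along the gene, from RefSeq (GRCr8). Of the 31 measured genes, 24 had an entry. Capitals mark matches on either strand to the letters of 5 motifs: GTTAAT (core of the HNF1 site), AAGTCCA (part of the HNF4 site), TTGCNNAA (C/EBP), TTCNNNGAA (STAT) and AGAACA (core of the androgen and glucocorticoid receptor site).

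C1qa promoter, chr5:154419934-154420183, minus strand: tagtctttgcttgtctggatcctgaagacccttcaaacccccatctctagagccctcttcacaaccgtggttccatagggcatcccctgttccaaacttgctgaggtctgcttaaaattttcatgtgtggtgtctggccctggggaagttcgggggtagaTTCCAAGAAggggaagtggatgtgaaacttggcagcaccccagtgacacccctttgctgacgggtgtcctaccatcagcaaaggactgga
Klkb1 promoter, chr16:53690976-53691225, plus strand: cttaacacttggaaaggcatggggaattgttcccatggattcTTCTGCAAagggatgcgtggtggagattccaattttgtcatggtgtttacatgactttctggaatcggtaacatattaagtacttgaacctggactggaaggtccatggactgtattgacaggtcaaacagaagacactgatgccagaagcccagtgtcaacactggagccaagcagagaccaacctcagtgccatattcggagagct
F10 promoter, chr16:83190281-83190530, minus strand: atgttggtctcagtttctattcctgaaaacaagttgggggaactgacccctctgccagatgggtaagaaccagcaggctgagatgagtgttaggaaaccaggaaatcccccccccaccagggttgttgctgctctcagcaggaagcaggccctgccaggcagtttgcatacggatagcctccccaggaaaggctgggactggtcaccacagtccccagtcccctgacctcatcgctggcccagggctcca
Serpinc1 promoter, chr13:75790308-75790557, plus strand: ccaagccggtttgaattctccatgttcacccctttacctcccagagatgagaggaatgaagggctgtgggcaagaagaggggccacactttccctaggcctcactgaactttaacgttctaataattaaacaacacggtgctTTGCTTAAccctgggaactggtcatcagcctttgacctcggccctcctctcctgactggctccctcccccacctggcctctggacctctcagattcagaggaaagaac
F2 promoter, chr3:98065247-98065496, minus strand: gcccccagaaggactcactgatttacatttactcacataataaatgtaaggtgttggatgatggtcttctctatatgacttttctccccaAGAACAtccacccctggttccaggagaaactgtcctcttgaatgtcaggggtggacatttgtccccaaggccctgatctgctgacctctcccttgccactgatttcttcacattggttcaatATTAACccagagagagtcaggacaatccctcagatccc

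The match in C1qa was to the STAT letters, from 90 bases upstream of the start. Klkb1 and Serpinc1 each held a match to the C/EBP letters, from 208 and 108 bases upstream. F2 held the receptor core from 160 and the HNF1 core from 38 bases upstream, and the F10 window held none of the 5 motifs. Over the 24 members the C/EBP letters were found in 9 windows (37.5%), against 9.2% of 27457 rat promoters, and the HNF1 core in 6 (25%), against 6.46%. The STAT letters were in 5 (20.8%, against 7.52%), the receptor core in 1 (4.17%, against 17.1%) and the HNF4 letters in 0 (against 3.11%). Of the 8 members that were lower in obese liver in both dyes, 5 had an entry, and 1 held the C/EBP letters and 1 the STAT letters. A match describes letters only, and a missing match says only that these letters are not in this window.

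Array quality limits some of the values. Values are log2 intensities or log2 ratios after background correction and normalisation. They rank a probe across arrays but not against another probe. Every one of the 31 members lay well above background in both dyes on all 8 arrays. The vehicle RNA was in Cy3 on every array, so a probe's dye bias remains in each genotype's TU ratio, while it cancels in the difference of ratios and in obese over lean within a dye. The obese arrays shared a slide and a scan, and the lean arrays shared another slide and scan. The effects of slide and genotype therefore cannot be told apart. Both dyes of an array share their spots (correlation within spots 0.432), so obese over lean in TU and in vehicle are not independent of each other. Obese replicate 2 had a log ratio SD of 0.46, against 0.11 to 0.26 on the other 7 arrays. On obese replicate 1, 332 features lay more than 2 log2 units below the other obese arrays in both dyes, against 76 or fewer on any other array.

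Members passed the test between genotypes and none between treatments. In TU-treated rats 11 of 31 members were lower in obese than in lean liver at an adjusted p under 0.05 in limma (35.5%) and 0 were higher. Of all features 8.9% were lower and 11.4% higher, and of the features as well above background as the members 10.4% were lower. In vehicle-treated rats 9 of 31 were lower (29%) and 2 higher (6.45%), against 7.38% and 7.32% of all features, and 8.03% of the bright features were lower. The median log2 difference of the members was -0.22 with TU, against 0.014 over all features, and -0.24 with vehicle, against 0.006. These counts and medians depend on the scaling. With log ratios centred on the array median in place of loess the median of the members with TU was 0.14, against 0.073 over all features. Then 4 members were higher and 4 lower (4868 and 1126 of all features, against 2750 and 2142 with loess). With vehicle the median was -0.62, against -0.061 over all features. There 0 members were higher and 13 lower (661 and 2476 of all features, against 1761 and 1776 with loess). Whether fewer cells of a type or less RNA per cell underlies a difference cannot be told apart in whole liver.

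**Figure D1:**
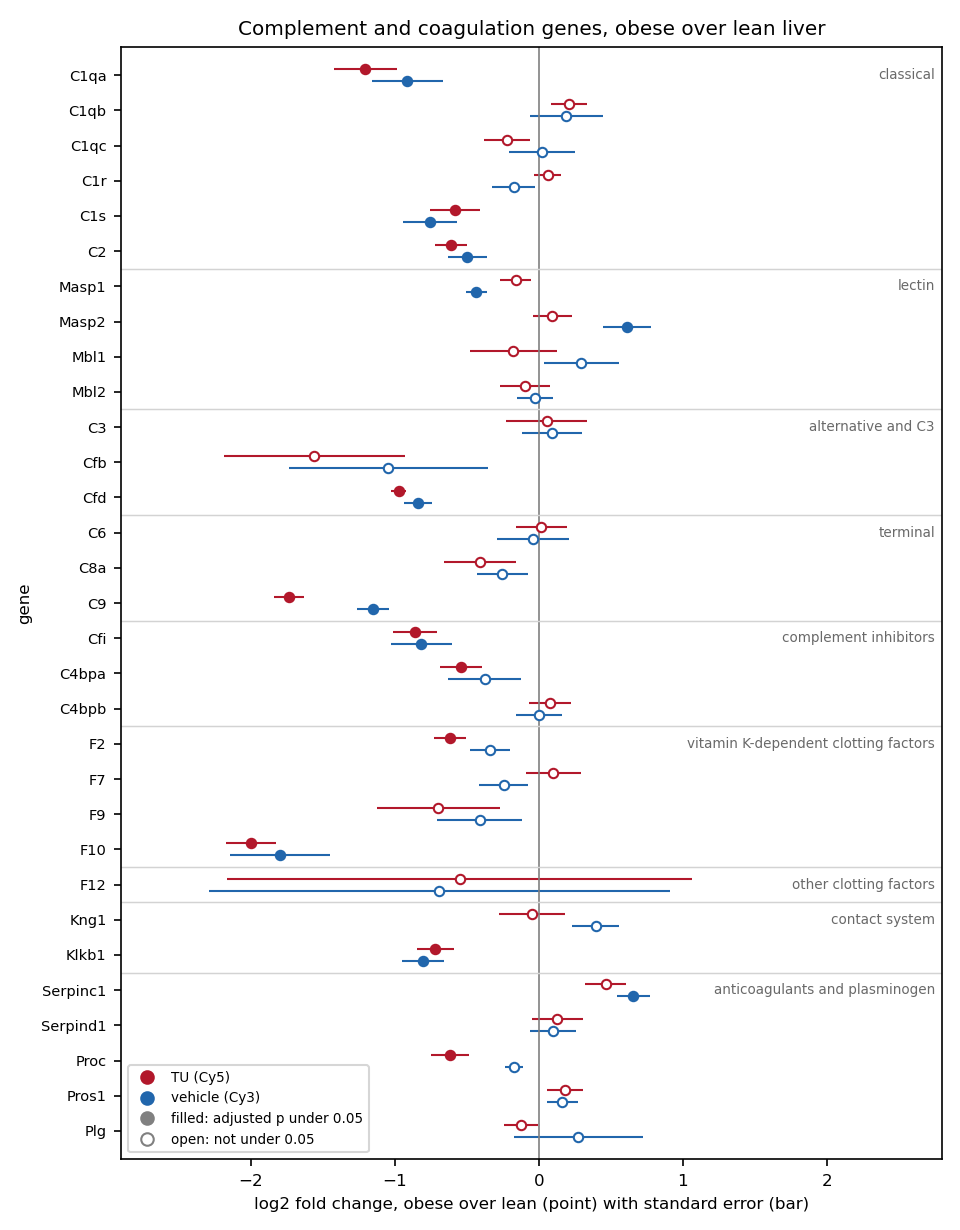
Log2 fold change of obese over lean liver for the 31 members, grouped by role, with TU RNA (Cy5, red) and vehicle RNA (Cy3, blue). Points are limma estimates, bars standard errors, filled points have an adjusted p under 0.05, and F10 (with TU -2.0) and C9 (-1.73) lie farthest to the left. With log ratios centred on the array median only C1qa, Cfd, C9 and F10 keep their call with TU.

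The same 8 genes were lower in obese liver in both dyes (25.8% of members, against 5.33% of all features). They were C1qa, C1s and C2 of the classical pathway, Cfd of the alternative pathway, C9 of the membrane pore, the inhibitor Cfi, and the clotting proteases Klkb1 and F10. C9 and Cfd kept both calls in all 19 alternative settings of the processing. With vehicle the call was lost in 12 of 19 for C1qa, 11 for C2, 8 for C1s, 7 for Cfi and 1 for Klkb1. With TU it was lost in 9 of 19 for C1s, 2 for Klkb1, and 1 each for C2 and Cfi. For F10 the vehicle call was lost with the replicate block and when any lean array was left out. In TU-treated rats the intensities of obese and lean arrays did not overlap for 11 of 30 members (36.7%, against 27.1% of all features). In vehicle-treated rats this held for 9 of 30 (30%, against 26%), a share near the background. F10, with 2 obese spots left out, is not in these counts of 30.

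Under median centring C1qa, Cfd, C9 and F10 kept their call in both dyes. The TU calls of the other 7 genes were lost, at -0.19 for C1s, -0.21 for C2, -0.40 for Cfi, -0.10 for C4bpa, -0.22 for F2, -0.36 for Klkb1 and -0.16 for Proc (limma, adjusted p 0.179 to 0.707). Serpinc1 (0.91), C1qb (0.66), C4bpb (0.52) and Masp2 (0.51) were then higher with TU (adjusted p 0.0151 to 0.0492). With vehicle all 9 genes lower under loess stayed lower, C1r, C8a, F2 and Proc were added, and the calls of Serpinc1 (0.21, adjusted p = 0.288) and Masp2 (0.20, adjusted p = 0.479) were lost.

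C9, the subunit that polymerises into the membrane pore, was lower in obese liver in both dyes. With TU its log2 intensity was 12.85, 13.23, 13.18 and 12.87 in obese livers, against 14.86, 14.67, 14.83 and 14.70 in lean livers. With vehicle it was 13.65, 13.20, 13.16 and 13.23 in obese livers, against 14.48, 14.44, 14.54 and 14.39 in lean livers. Every obese array lay below every lean array in both dyes, and obese replicate 1 was the highest obese vehicle value. The difference was -1.73 ± 0.10 (SE, n = 4 each) with TU, a 3.32-fold lower level (limma, adjusted p = 0.000135), and -1.15 ± 0.11 with vehicle, 2.22-fold lower (adjusted p = 0.00126). The call was kept in all 19 alternatives in either dye. The other measured terminal components did not pass the test with the probes that represented them. C6 was at 0.02 with TU and -0.04 with vehicle (adjusted p = 0.954 and 0.935). C8a, which joins the pore before C9, was at -0.41 and -0.25 (adjusted p = 0.289 and 0.381). Its further probe was at -0.58 ± 0.13 and -0.57 ± 0.22. On that probe obese and lean arrays were apart with TU (9.94 to 10.39, against 10.44 to 10.89) and overlapped with vehicle.

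Cfd, also called factor D or adipsin, cuts factor B to form the C3-cleaving enzyme of the alternative pathway, and is made in large amounts by fat cells. With TU its log2 intensity was 10.97, 10.86, 10.998 and 10.99 in obese livers, against 11.92, 11.97, 11.94 and 11.88 in lean livers. With vehicle it was 11.09, 10.93, 10.93 and 11.30 in obese livers, against 11.86, 11.89, 11.80 and 12.05 in lean livers. The groups did not overlap in either dye. Cfd was lower by -0.97 ± 0.05 (SE) with TU (limma, adjusted p = 9e-05) and by -0.84 ± 0.10 with vehicle (adjusted p = 0.00252), and kept its call in all 19 alternatives. Of the listed fat cell markers 3 of 6 were measured, with Adipoq, Plin1 and Lep not analysed here. The fatty acid carrier Fabp4 was higher in obese liver (0.61 with TU and 0.35 with vehicle, adjusted p = 0.00758 and 0.0184), and Cidec and Retn did not pass. The summed log2 level of the 3 markers was 9.87 to 10.50 in obese and 9.57 to 9.87 in lean livers with TU, and 10.01 to 10.71 in obese and 9.85 to 10.10 in lean livers with vehicle. On that sum the groups overlapped in both dyes, just at the edge with TU. The mean of the 3 log2 levels did not overlap, at 7.81 to 8.28 in obese and 7.51 to 7.66 in lean livers with TU. With vehicle that mean was 7.80 to 8.17 in obese and 7.65 to 7.73 in lean livers. The obese over lean difference was above 0 for all 3 markers in both dyes. On all arrays 1 of the 3 was well above background with TU and 2 with vehicle. The part of fat cell content in the Cfd result was not tested.

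C3, on which all routes converge, did not pass: its difference was 0.05 ± 0.28 (SE) with TU and 0.09 ± 0.21 with vehicle (limma, adjusted p = 0.915 and 0.805), and its intensities overlapped. Cfb, the factor B that Cfd cuts, had log2 intensities with TU of 14.48, 13.53 and 11.52 in obese replicates 1, 2 and 3, against 15.05, 14.71, 14.54 and 14.66 in lean livers. The spot of obese replicate 4 was non-uniform and left out. The groups did not overlap with TU, yet the obese values were far apart and the difference of -1.56 ± 0.63 (SE) did not pass in limma (adjusted p = 0.13). Without obese replicate 1 it did (-2.21, adjusted p = 0.0196), and leaving out any other array gave values up to -0.73. Kept, the spot of obese replicate 4 read 9.75 with TU and 9.84 with vehicle, and the TU difference was -2.36 (adjusted p = 0.115). Replicate 3 was low in both dyes, at 11.72 with vehicle.

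**Figure D2:**
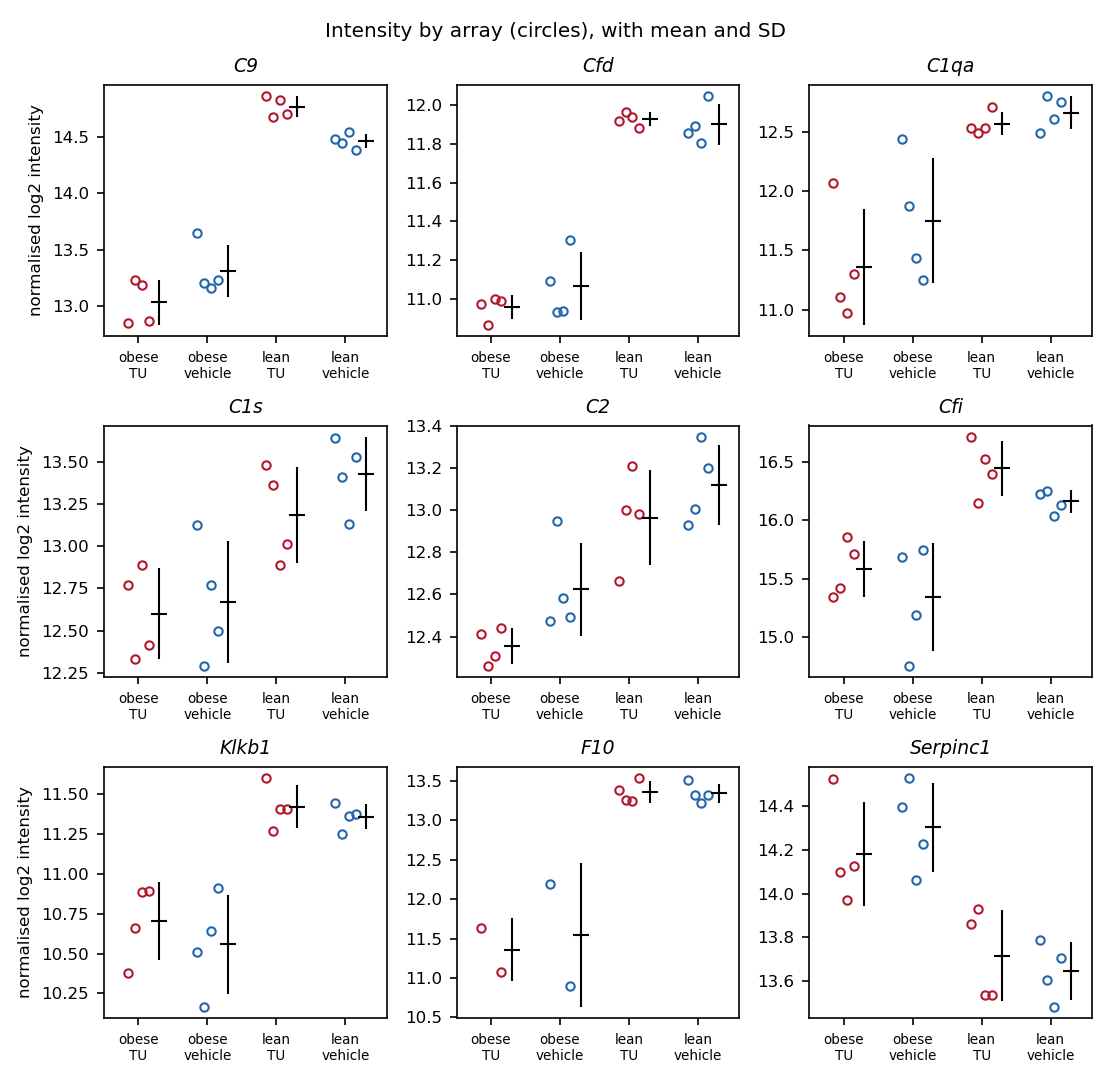
Normalised log2 intensity of 9 genes on each array (circles) with mean and SD (black), in obese rats with TU and vehicle and in lean rats with TU and vehicle. The first 8 genes are lower in obese livers in both dyes (limma, adjusted p under 0.05). Serpinc1 lies higher in both dyes and passed the test with vehicle only. F10 has 2 obese arrays per dye because 2 spots were left out, and the vertical scales differ between panels.

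The classical pathway starts with C1q, a protein of A, B and C chains that macrophages make, and with the proteases C1r and C1s bound to it. C1qa passed the test in both dyes, and C1qb and C1qc did not. C1qa had log2 intensities with TU of 12.07, 11.11, 10.98 and 11.30 in obese livers, against 12.53, 12.49, 12.53 and 12.71 in lean livers. With vehicle it had 12.43, 11.88, 11.44 and 11.25 in obese livers, against 12.49, 12.80, 12.61 and 12.75 in lean livers. Every obese array was below every lean array, with obese replicate 1 closest to the lean ones in both dyes. The difference was -1.20 ± 0.22 (SE) with TU (limma, adjusted p = 0.00826) and -0.91 ± 0.24 with vehicle (adjusted p = 0.0456). The further C1qa probe was at -1.10 ± 0.38 with TU and -0.78 ± 0.46 with vehicle, and its groups overlapped in both dyes. On that probe obese replicate 1 read 11.43 with TU, against 11.19 to 11.70 in lean livers. With vehicle it read 11.92, above the lean range of 11.35 to 11.86. The vehicle call was lost when any array but obese replicate 1 was left out (adjusted p 0.0553 to 0.119, value -0.97 to -0.75), and with processed signals (-0.66, adjusted p = 0.165). The mean of probes, no filter on dim probes, the replicate block and non-uniform spots kept (-0.89, limma, adjusted p = 0.0517) also lost the vehicle call. The TU call was kept in all 19 alternatives.

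C1qb, the B chain, was at 0.21 ± 0.13 with TU and 0.19 ± 0.25 with vehicle (limma, adjusted p = 0.279 and 0.661), and C1qc, the C chain, at -0.22 ± 0.16 and 0.02 ± 0.23 (adjusted p = 0.385 and 0.965). The second C1qc probe was at -0.23 and -0.10. Whether C1qa differs from the other chains was not tested. Of the listed Kupffer cell and macrophage markers, 7 of 10 were measured, and Cd5l, Timd4 and Msr1 were not analysed here. Clec4f, a lectin of Kupffer cells, was lower in obese liver with TU (-0.95 ± 0.10, adjusted p = 0.000879). In vehicle-treated rats it stood at -0.71 ± 0.21 (adjusted p = 0.0639). Cd68, Cd163, Marco, Adgre1, Csf1r and Mrc1 did not pass in either dye. The summed log2 level of the 7 markers was 13.45 to 13.91 in obese and 14.35 to 14.42 in lean livers with TU, and 13.84 to 14.38 in obese and 14.27 to 14.84 in lean livers with vehicle. Clec4f weighs most in that sum. The mean of the 7 log2 levels overlapped between genotypes, at 8.89 to 9.80 in obese and 9.55 to 9.77 in lean livers with TU and 9.17 to 9.94 in obese and 9.53 to 10.03 in lean livers with vehicle, and 3 of the 7 markers were above 0 in either dye. Their part in the C1qa result was not tested.

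**Figure D3:**
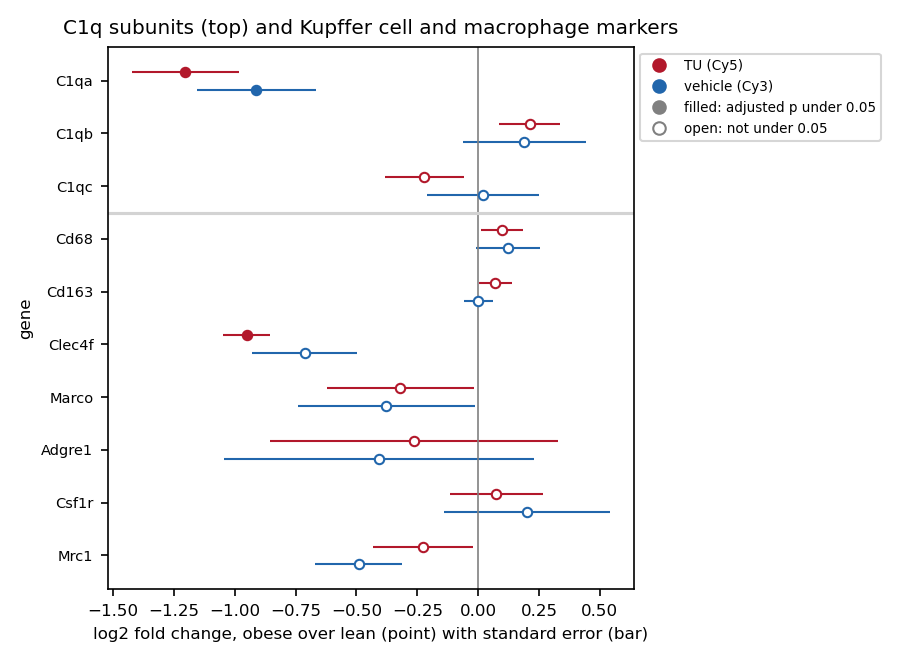
Log2 fold change of obese over lean liver for the 3 C1q chains and the 7 measured Kupffer cell and macrophage markers, with TU RNA (Cy5, red) and vehicle RNA (Cy3, blue). Bars are standard errors and filled points have an adjusted p under 0.05: C1qa in both dyes and Clec4f with TU.

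C1s, the protease that cuts C4 and C2, had log2 intensities with TU of 12.77, 12.33, 12.89 and 12.42 in obese livers, against 13.48, 13.36, 12.89 and 13.01 in lean livers. With vehicle it had 13.12, 12.29, 12.77 and 12.50 in obese livers, against 13.64, 13.41, 13.13 and 13.53 in lean livers. The groups met with TU, at obese and lean replicate 3, and were just apart with vehicle. C1s was lower by -0.58 ± 0.17 (SE) with TU (limma, adjusted p = 0.0492) and by -0.76 ± 0.19 with vehicle (adjusted p = 0.0378). Both calls were close to the threshold. The TU call was lost with the replicate block (adjusted p = 0.0719), and on leaving out obese replicate 2 or 4 or lean replicate 1, 2 or 4 (adjusted p 0.0749 to 0.122). The vehicle call was lost without any lean array or obese replicate 3 or 4 (adjusted p 0.0559 to 0.106). The further C1s probe was at -0.45 and -0.44. C1r, the protease that activates C1s, was at 0.06 with TU and -0.18 with vehicle and did not pass (adjusted p = 0.698 and 0.467).

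C2, which supplies the catalytic part of the classical C3-cleaving enzyme, had log2 intensities with TU of 12.41, 12.26, 12.31 and 12.44 in obese livers, against 12.66, 13.002, 13.21 and 12.98 in lean livers. With vehicle it had 12.47, 12.95, 12.58 and 12.50 in obese livers, against 12.93, 13.01, 13.35 and 13.20 in lean livers. The groups were apart with TU and overlapped with vehicle, where obese replicate 2 exceeded the lowest lean array. The difference was -0.61 ± 0.11 (SE) with TU (limma, adjusted p = 0.00879) and -0.50 ± 0.13 with vehicle (adjusted p = 0.0473). The vehicle call was lost when any array but obese replicate 2 was left out (adjusted p 0.0698 to 0.126, value -0.56 to -0.42). It was also lost with no filter on dim probes, trend and robust moderation, the replicate block and non-uniform spots kept.

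In the lectin pathway the mannose-binding lectins Mbl1 and Mbl2 did not pass (limma, adjusted p 0.489 to 0.918 over both dyes). Their proteases gave calls with vehicle that depended on the probe. Masp1 had log2 intensities with vehicle of 11.50, 11.31, 11.53 and 11.31 in obese livers, against 11.97, 11.85, 11.77 and 11.79 in lean livers. It was lower by -0.43 ± 0.08 (SE, adjusted p = 0.0112), while its further probes were at 0.22 and 0.35 and the mean over its probes was 0.05. Masp2, the protease that cuts C4 and C2 for the lectins, had 12.84, 13.51, 12.66 and 13.09 in obese livers, against 12.48, 12.34, 12.40 and 12.42 in lean livers. It was higher by 0.61 ± 0.17 (adjusted p = 0.0493), with its further probes at -0.02 and -0.67 and the mean over its probes at -0.03. Its call was lost without any lean array or obese replicate 4 (adjusted p 0.101 to 0.125). In TU-treated rats neither passed (-0.16 and 0.10, adjusted p = 0.331 and 0.678). No direction is given for either gene as a whole.

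Among the complement inhibitors Cfi, the protease that cuts C3b and C4b into inactive forms, was lower in obese liver. With TU its log2 intensity was 15.34, 15.42, 15.85 and 15.71 in obese livers, against 16.71, 16.15, 16.52 and 16.39 in lean livers. In vehicle RNA it was 15.68, 14.76, 15.19 and 15.74 in obese livers, against 16.23, 16.25, 16.04 and 16.13 in lean livers. The groups did not overlap in either dye. The difference was -0.86 ± 0.15 (SE) with TU (limma, adjusted p = 0.0072) and -0.82 ± 0.21 with vehicle (adjusted p = 0.0421). The vehicle call was lost without any lean array or obese replicate 3 (adjusted p 0.0815 to 0.109). It was also lost with no filter on dim probes and with the replicate block.

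C4bpa, the alpha chain of the C4b-binding protein, had log2 intensities with TU of 14.22, 14.43, 14.79 and 14.71 in obese livers, against 14.83, 15.10, 15.31 and 15.06 in lean livers. The 2 groups were just apart, and the difference was -0.54 ± 0.15 (SE; limma, adjusted p = 0.0366). It was lost on leaving out obese replicate 2 or lean replicate 2, 3 or 4 (adjusted p 0.0842 to 0.0918). With vehicle C4bpa was at -0.38 ± 0.25 (adjusted p = 0.355). C4bpb, the beta chain of the same protein, was at 0.08 with TU and -0.00 with vehicle (adjusted p = 0.754 and 0.998).

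Of the vitamin K-dependent clotting factors F10, which becomes the protease that makes thrombin, gave the largest difference of any member. With TU its log2 intensity was 11.64 and 11.08 in obese replicates 1 and 3, against 13.38, 13.25, 13.24 and 13.54 in lean livers. In vehicle RNA it was 12.19 and 10.90 in the same obese livers, against 13.51, 13.32, 13.21 and 13.32 in lean livers. The spots of obese replicates 2 and 4 were marked as non-uniform and left out of the fit. With those spots kept, obese replicates 2 and 4 read 10.91 and 11.11 with TU and 11.82 and 11.22 with vehicle, also below every lean array. The difference was -2.0 ± 0.17 (SE, 2 obese and 4 lean arrays) with TU, 3.99-fold lower (limma, adjusted p = 0.00149). In vehicle RNA it was -1.80 ± 0.35, 3.47-fold lower (adjusted p = 0.0266). The vehicle call was lost when any lean array was left out (adjusted p 0.0739 to 0.0805), and the TU call was kept in all 18 alternatives. In 2 of these, without obese replicate 1 or 3, a single obese array was left and was assumed to vary like the other arrays, so they are values rather than a check of the obese spread. Without obese replicate 1 or 3 the vehicle value lay between -2.44 and -1.15.

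F2, prothrombin, had log2 intensities with TU of 16.45, 16.62 and 16.63 in obese replicates 1, 3 and 4, against 17.07, 17.15, 17.45 and 17.06 in lean livers. The groups were apart, and F2 was lower by -0.62 ± 0.11 (SE; limma, adjusted p = 0.0107). The spot of obese replicate 2 was non-uniform and left out. Kept, it read 12.04, far below the other obese arrays, and the difference was -1.74 with the call lost (adjusted p = 0.256). The call was also lost with processed signals (-0.54, adjusted p = 0.147) and with median centring (-0.22, adjusted p = 0.251). With vehicle F2 was at -0.34 ± 0.14 (adjusted p = 0.153). F7 and F9, the factors VII and IX, did not pass. F7 was at 0.10 and -0.24 (adjusted p = 0.75 and 0.379). F9 was at -0.70 and -0.41 (adjusted p = 0.294 and 0.389), with its further probe at 0.27 and 0.25, and its obese replicate 1 lay low in both dyes. F12, factor XII, had spots far below the rest on obese replicate 1 (9.24 with TU and 9.003 with vehicle) and on lean replicate 1 (12.21 and 12.46), against 15.30 to 16.12 on the other arrays. Its differences of -0.55 ± 1.61 and -0.69 ± 1.60 carry no direction. The further F12 probe was at 0.92 ± 0.20 with TU and 1.33 ± 0.34 with vehicle. On that probe every obese array lay above every lean array in both dyes, and it is not in the counts of members.

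In the contact system Klkb1, the plasma prekallikrein that frees bradykinin from kininogen, was lower in obese liver. With TU its log2 intensity was 10.38, 10.66, 10.89 and 10.89 in obese livers, against 11.60, 11.27, 11.41 and 11.41 in lean livers. In vehicle RNA it was 10.51, 10.17, 10.64 and 10.91 in obese livers, against 11.45, 11.25, 11.36 and 11.38 in lean livers. No obese array reached a lean one in either dye. The difference was -0.72 ± 0.13 (SE) with TU (limma, adjusted p = 0.00743) and -0.80 ± 0.15 with vehicle (adjusted p = 0.0133). Leaving out any 1 array ended neither call. With processed signals both were lost, at -0.48 with TU and -0.59 with vehicle (adjusted p = 0.165 and 0.121), and with median centring the TU call was lost (adjusted p = 0.183). Kng1, the kininogen it cuts, was at -0.05 with TU and 0.39 with vehicle (adjusted p = 0.906 and 0.151). Rats have close copies of this gene, and which of them the probe reads is uncertain.

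The anticoagulants went both ways. Serpinc1, antithrombin, had log2 intensities with TU of 14.52, 14.10, 13.97 and 14.13 in obese livers, against 13.86, 13.93, 13.54 and 13.54 in lean livers. With vehicle it had 14.40, 14.53, 14.06 and 14.22 in obese livers, against 13.79, 13.61, 13.48 and 13.70 in lean livers. All obese arrays lay above all lean arrays in both dyes. With TU the difference was 0.46 ± 0.14 (SE; limma, adjusted p = 0.056), which passed with the replicate block (adjusted p = 0.032). With vehicle Serpinc1 was higher by 0.66 ± 0.11, 1.58-fold (adjusted p = 0.011), and with median centring the value was 0.21 and the call was lost (adjusted p = 0.288).

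Proc, protein C, which inactivates the factors V and VIII, had log2 intensities with TU of 14.48, 14.81, 14.81 and 14.69 in obese livers, against 15.11, 15.13, 15.64 and 15.38 in lean livers. The groups were apart and Proc was lower by -0.62 ± 0.13 (SE; limma, adjusted p = 0.0166), though not without lean replicate 4 (-0.60, adjusted p = 0.0505) or with median centring (-0.16, adjusted p = 0.462). In vehicle-treated rats it stood at -0.17 ± 0.06 (adjusted p = 0.111). Pros1, the cofactor of protein C, Serpind1, heparin cofactor II, and Plg, the precursor of the clot-dissolving plasmin, did not pass (adjusted p 0.348 to 0.728). Plg read 14.10 with vehicle on obese replicate 2, against 11.90 to 12.22 on the other obese arrays.

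Markers of hepatocytes, the main source of these proteins, lay on both sides of 0. With TU 2 of 10 were higher (20%, against 11.4% of all features) and 1 lower (10%, against 8.9%) in obese liver, with a median of -0.013 and 5 of 10 below 0. With vehicle 4 were higher (40%, against 7.32%) and 0 lower (against 7.38%), with a median of 0.19. Cps1, the first enzyme of the urea cycle, was higher in both dyes (0.85 and 1.04; limma, adjusted p = 0.0115 and 0.0347). Apoa1, the main protein of high-density lipoprotein, was also higher in both dyes (0.33 and 0.57, adjusted p = 0.0468 and 0.0405). Albumin (Alb, 0.72, adjusted p = 0.023) and the retinol carrier Rbp4 (0.28, adjusted p = 0.046) were higher with vehicle. Tf, transferrin, was lower with TU (-0.58, adjusted p = 0.0345). The part of hepatocyte content in the member results was not tested.

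Of 48 further listed genes of the 2 systems, 39 were measured. In TU-treated rats 7 were higher (17.9%, against 11.4% of all features) and 4 lower (10.3%, against 8.9%) in obese liver. In vehicle-treated rats 4 were higher (10.3%, against 7.32%) and 2 lower (5.13%, against 7.38%), so most of these shares were near the background. Mcfd2, a cargo receptor subunit that carries the factors V and VIII out of the endoplasmic reticulum, had log2 intensities with TU of 9.43, 9.09, 9.36 and 9.22 in obese livers, against 11.65, 11.69, 11.24 and 11.54 in lean livers. With vehicle it had 9.79, 9.41, 9.30 and 9.54 in obese livers, against 11.56, 11.39, 11.50 and 11.79 in lean livers. All obese arrays lay far below all lean arrays. Mcfd2 was lower by -2.26 ± 0.12 (SE) with TU (limma, adjusted p = 8.37e-05) and by -2.05 ± 0.12 with vehicle (adjusted p = 0.000237). Its partner Lman1 was higher with TU (0.67, adjusted p = 0.0205).

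Genes of both systems were higher in obese liver in both dyes as well. C4a, a complement C4 gene, was at 1.13 with TU and 1.25 with vehicle (limma, adjusted p = 0.027 and 0.0338). It has a near-identical copy, so its probe may read both. Vkorc1, which recycles vitamin K, was at 0.78 and 0.74 (adjusted p = 0.0311 and 0.00574), and Serpina10, an inhibitor of activated factor X, at 0.33 and 0.62 (adjusted p = 0.0419 and 0.0156). With TU alone the test was passed by Vsig4, a macrophage receptor for C3b (0.88, adjusted p = 0.0207), by C1qbp, a mitochondrial protein first isolated for binding C1q (0.65, adjusted p = 0.0107), and by Cpb2, which protects clots from lysis (0.22, adjusted p = 0.0193). Lower with TU were Fcna, ficolin A (-1.74, adjusted p = 0.014), Serping1, the C1 inhibitor (-0.53, adjusted p = 0.00352), and Thbd, thrombomodulin (-0.29, adjusted p = 0.025). With vehicle alone A2m, a broad protease inhibitor, was lower (-1.50, adjusted p = 0.00994) and Cr1l, a rodent complement regulator of cell surfaces, higher (0.26, adjusted p = 0.0242). With TU A2m read 10.79 on obese replicate 2, against 8.66 to 9.64 on the other obese arrays and 9.67 to 10.81 in lean livers. For the further listed genes no alternatives are given. Whether the genes called in only 1 dye differ between dyes was not tested here.

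TU over vehicle was measured within each array. No member passed in either genotype: 0 of 31 had an adjusted p under 0.05 in limma in obese rats, against 0.0124% of all features, and 0 of 31 in lean rats, against 0.204%. At an unadjusted p under 0.05 there were 11 members in obese rats (35.5%, against 12.6% of all features) and 11 in lean rats (35.5%, against 15.3%). The median log2 ratio of the members was -0.12 in obese and 0.03 in lean rats, against -0.006 and -0.017 over all features. These medians depend on the normalisation. With ratios centred on the array median in place of loess they were 0.24 in obese and -0.48 in lean rats, against 0.020 and -0.21 over all features. In lean rats 9 of 31 members and 5440 of the 24128 features were then called lower, against 0 and 17 with loess. Under that centring C2, Mbl1 and Cfb turned above 0 in obese rats, Kng1, F9, Proc and Mbl1 turned below 0 in lean rats, and of the differences named below only that of F7 kept its sign.

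**Figure D4:**
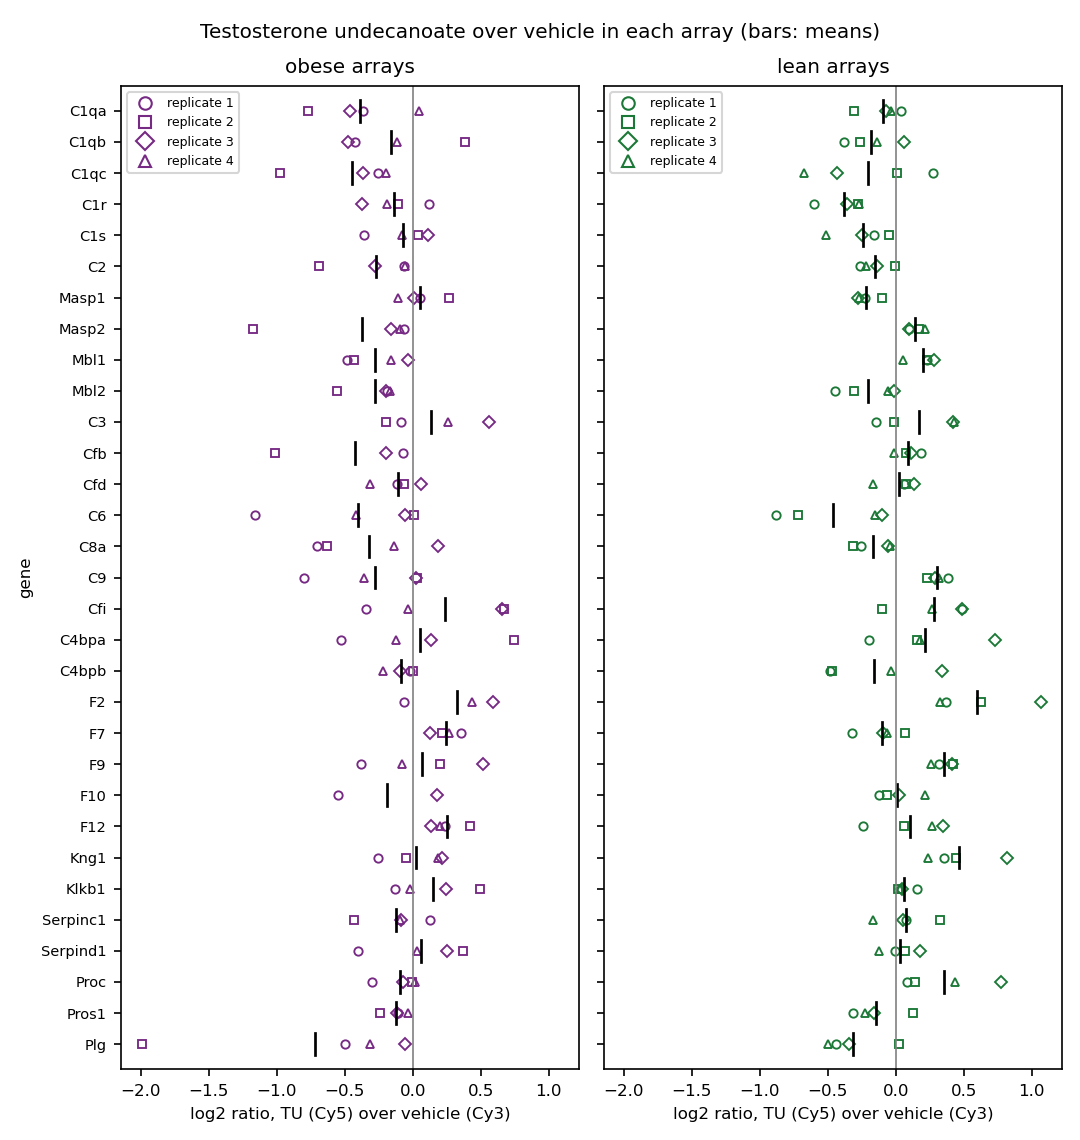
Log2 ratio of TU over vehicle for the 31 members in each of the 4 obese arrays (left) and 4 lean arrays (right), with symbols for replicates and bars for means. Most members lie within 0.5 of 0, and obese replicate 2 (squares) gives the lowest value of Plg (-1.99) and Masp2 (-1.18).

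In obese rats all arrays lay on the same side of 0 for 10 of 30 members (33.3%, against 23.7% of all features), with 2 higher and 8 lower. F7, the protease that starts clotting with tissue factor, had log2 ratios of 0.35, 0.22, 0.13 and 0.27 in obese rats, all above 0, and a mean of 0.24 ± 0.07 (SE; limma, adjusted p = 0.323). F12 had 0.24, 0.42, 0.13 and 0.20 (adjusted p = 0.377), although its further probe averaged -0.61. Mbl1 had -0.48, -0.43, -0.03 and -0.16 (mean -0.28, adjusted p = 0.337). Mbl2 had -0.19, -0.55, -0.20 and -0.16 (adjusted p = 0.359).

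C1qc, C2, Plg, Cfb, Masp2 and Pros1 were also below 0 on every obese array with a value, and each of these 6 had its lowest value on obese replicate 2. C1qc had -0.25, -0.98, -0.37 and -0.20 (limma, adjusted p = 0.378), and C2 had -0.06, -0.69, -0.27 and -0.05 (adjusted p = 0.377). Plg had -0.50, -1.99, -0.06 and -0.32, with a mean of -0.72 ± 0.27 (SE, adjusted p = 0.377). Cfb had -0.07, -1.01 and -0.19 on 3 arrays (adjusted p = 0.38). Without obese replicate 2 the means were -0.27 for C1qc, -0.13 for C2, -0.29 for Plg and -0.13 for Cfb.

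In lean rats all arrays lay on the same side of 0 for 15 of 31 members (48.4%, against 30.5% of all features), with 8 higher and 7 lower. F2 had log2 ratios of 0.37, 0.63, 1.07 and 0.33 in lean rats, the highest on replicate 3, with a mean of 0.60 ± 0.14 (SE; limma, adjusted p = 0.124). Kng1 had 0.36, 0.44, 0.82 and 0.24 (mean 0.46, adjusted p = 0.104). F9 had 0.32, 0.42, 0.41 and 0.26 (mean 0.35, adjusted p = 0.227), with its further probe at 0.14. Proc, at 0.08, 0.14, 0.77 and 0.44 (adjusted p = 0.182), and Mbl1, at 0.23, 0.23, 0.28 and 0.05 (adjusted p = 0.285), were also above 0 on all 4 lean arrays. C1r had -0.60, -0.28, -0.36 and -0.27 (mean -0.38, adjusted p = 0.102), Masp1 -0.22, -0.10, -0.28 and -0.27 (adjusted p = 0.17) and C1s -0.16, -0.05, -0.25 and -0.52 (adjusted p = 0.262), all below 0. The further probes of Masp1 were above 0, at 0.07 and 0.14, so no direction is given for that gene as a whole, while that of C1s was at -0.28. Leaving out obese replicate 2 changed no lean ratio, only the spread that both genotypes share in the fit. In limma C1r, F2, Kng1 and Masp1 then had adjusted p of 0.0442, 0.0469, 0.0456 and 0.0421. Of all features 1112 were then called in lean rats, against 49 with every array. Of the hepatocyte markers Rbp4 (0.66, adjusted p = 0.0385) and Ambp (0.76, adjusted p = 0.0325) were higher with TU in lean rats, and their part in the member values was not tested.

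A probe's dye bias cancels in the response to TU, obese minus lean. Again 0 of 31 members passed, against 0.00416% of all features, and 7 had an unadjusted p under 0.05 (22.6%, against 7.93%). The obese and lean ratios did not overlap for 7 of 30 members (23.3%, against 5.32%), 6 with lower and 1 with higher ratios in obese rats. The median difference of the members was -0.13, against 0.003 over all features. With ratios centred on the array median it was 0.69, against 0.22 over all features.

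C9 had log2 ratios of -0.80, 0.03, 0.02 and -0.36 in obese rats, against 0.38, 0.23, 0.29 and 0.32 in lean rats, a difference of -0.58 ± 0.17 (SE; limma, adjusted p = 0.614). Mbl1, below 0 on all obese and above 0 on all lean arrays, differed by -0.47 ± 0.11 (adjusted p = 0.614). Kng1 had -0.26, -0.05, 0.21 and 0.19 in obese rats, against the lean ratios given above (-0.44, adjusted p = 0.614). Proc had -0.30, -0.00, -0.08 and 0.02 in obese rats, below all lean ratios (-0.45, adjusted p = 0.614). F7 had lean ratios of -0.32, 0.06, -0.09 and -0.06, below all obese ratios (0.34 ± 0.09, adjusted p = 0.614).

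Masp2 had -0.06, -1.18, -0.16 and -0.10 in obese rats, against 0.10, 0.17, 0.10 and 0.21 in lean rats (-0.52, limma, adjusted p = 0.636). Its further probes gave differences of -0.22 and -0.13, and their means were below 0 in lean rats too (-0.18 and -0.06). Cfb had lean ratios of 0.19, 0.08, 0.11 and -0.01, above the 3 obese ratios (-0.52, adjusted p = 0.626). The difference was smaller without obese replicate 2 for both, at -0.25 for Masp2 and -0.22 for Cfb.

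Of the further listed genes 0 of 39 passed for TU in either genotype or for the difference. Closest was Vtn, vitronectin, a plasma protein that blocks the membrane pore, with a mean log2 ratio of 0.35 in obese rats (limma, adjusted p = 0.339) and 0.64 in lean rats (adjusted p = 0.0575). In obese rats it was followed by C4a (-0.55), Tfpi, the tissue factor pathway inhibitor (0.34), and Serping1 (0.32), with adjusted p of 0.369, 0.377 and 0.385. In lean rats it was followed by Ggcx, the vitamin K-dependent carboxylase (-0.35), Lman1 (-0.43) and the fibrinogen chain Fgg (0.40), with adjusted p of 0.081, 0.11 and 0.164. For the difference the smallest unadjusted p were those of Ggcx (0.30), Serpina5 (0.58), Serpina10 (-0.28) and C5ar1 (0.35), with adjusted p of 0.614, 0.623, 0.63 and 0.639.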

How the data were processed

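Liver RNA of 4 obese and 4 lean rat arrays was analysed, with TU in Cy5 and vehicle in Cy3 on each. The members and all gene lists were chosen with earlier results of these data known. Per the file headers, the spot and background intensities are median pixel values read with Feature Extraction 10.7.3.1 (Agilent), and the log10 ratios are red over green. Further deposited columns hold flags per spot (above background, non-uniform, saturated, control). The authors' series matrix holds log2 ratios; their normalisation is not given in the sources. Set against the scanner values, they were TU over vehicle, with slopes of 3.33 to 3.38 on the log10 ratio, and their column medians were 0.0462 to 0.14. All columns were mapped, leaving 0 without a sample.

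Each array held 45018 spots, and its median intensity was 56 to 68 in Cy5, over a background of 41 to 45, and 39.5 to 56 in Cy3, over 19 to 25, which limits the precision of dim probes. Control and non-uniform spots were left out. Signals were corrected with normexp (offset 50), normalised by loess within arrays and, for single dyes, by Aquantile between arrays, in limma 3.58.1 (R 4.3.3, data.table, version 1.17.8). Probes well above background in either dye on at least 4 arrays were kept and the brightest probe stood for its gene, named through RefSeq accessions. Features were tested with lmFit and eBayes on the log2 scale, with Benjamini-Hochberg adjustment over all features and a threshold of 0.05. The code was tested on simulated data. Members described in full were those called, plus up to 8 per comparison with the smallest unadjusted p whose arrays lay on one side of 0 or did not overlap.

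Replicate numbers were checked as pairs by correlating deviations from the genotype means. In Cy5 same-numbered arrays correlated by 0.61, 0.18, 0.45 and 0.25, and each lean array correlated best with the obese array of its number. In Cy3 (0.62, 0.066, 0.41 and -0.056) and in the log ratios this did not hold for every number. What the shared numbers stand for was not tested. A fit with the number as a block is given for Cy5 where it changed a call. Alternatives covered background, signal, normalisation, filter, probes, moderation, block and each array left out.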

Additional observations from a re-analysis of the deposited data

Results flagged for a closer look

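On obese replicate 2 the log2 ratio of TU over vehicle was -0.55 for Mbl2 and -1.18 for Masp2, each far below the other 3 obese arrays. On obese replicate 1 the log2 intensity of C9 with vehicle was 13.65, far above the other obese arrays, and still below every lean array. Chance gives about 1 such sample in 20 groups of 4, so chance alone would give some among the many groups printed here. The log2 ratios of Masp2, on its brightest probe, and of Mbl1 were below 0 on all 4 obese arrays and above 0 on all 4 lean arrays. The test of that difference did not pass for either gene: it was -0.52 for Masp2 (limma, adjusted p = 0.636) and -0.47 for Mbl1 (adjusted p = 0.614). The further Masp2 probes averaged below 0 in both genotypes, at -0.18 and -0.06 in lean rats and -0.40 and -0.19 in obese rats.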

How the results depend on the processing

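Genotype and slide cannot be told apart, no dyes were exchanged, and 4 arrays per genotype limit the precision. With the array number as a block for vehicle, where same-numbered arrays did not all correlate best, 5 members (4 lower) and 1434 features were called between genotypes. With no filter on dim probes 6 members (5 lower) were called with vehicle. With the deposited processed signals, the median of all features between genotypes with vehicle moved to -0.11. Leaving out 1 array gave 8 to 12 members and 3078 to 7576 features with TU, and 5 to 13 members and 1497 to 4941 features with vehicle. For the TU response it gave 0 members and 0 to 3 features in obese rats, 0 to 4 members and 1 to 1112 features in lean rats, and 0 members and 0 to 3 features for the difference. Without background correction 83 features were called for TU in obese and 345 in lean rats and 0 for the difference, with processed signals 208, 258 and 2, and with the authors' log ratios 196, 260 and 2. With the array median in place of loess the counts were 0, 5725 (285 higher and 5440 lower, against 32 and 17 with loess) and 0, the medians of all features in lean rats and of the difference moved to -0.21 and 0.22, and 9 members were called in lean rats. With scaled ratios or with trend and robust moderation 0 features were called in obese rats, in lean rats and for the difference. The mean of probes gave 0 in obese rats and 0 for the difference. The block gave 0 in obese rats, 22 in lean rats and 0 for the difference. Each genotype alone gave 0 features in obese and 283 in lean rats, with 2 members in lean rats. Non-uniform spots kept, an alternative chosen after seeing the data, gave 7 features in obese rats. Under median centring the value was 0.013 for Mbl1, 0.024 for C2 and 0.028 for Cfb in obese rats, and -0.015 for Kng1, -0.11 for Proc, -0.14 for F9 and -0.32 for Mbl1 in lean rats. Its difference was 0.34 for Mbl1, 0.23 for C9, 0.46 for Kng1, 0.46 for Proc, 0.41 for Cfb and 0.31 for Masp2. The mean of probes turned F12 with TU in obese rats to -0.18, Masp1 with vehicle to 0.046 and Masp2 with vehicle to -0.027. The causes were not tested.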
